A study of Mus musculus with 8 samples.

Results

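The 34 genes described here serve homologous recombination, the Fanconi anaemia pathway and mismatch repair, and they were chosen by name, not by any measured value. Each was taken as the gene body of its longest protein-coding transcript in GENCODE release M21 on mm10, and all 34 were found among the 21853 protein-coding genes. The measurement was ChIP–seq of H3K36me3 (trimethylation of histone H3 at lysine 36) in mouse embryonic fibroblasts (MEFs) from 1 embryo of day 13.5, called Clone 1 in the labels, and the study left out MEFs that did not reprogramme. These i4F cells carry doxycycline-inducible Oct4, Sox2, Klf4 and cMyc (OSKM), the factors that reprogramme fibroblasts towards iPS cells, and all cultures were kept for 72 h in iPSC medium. MEF received neither agent, MEF B12 received vitamin B12 at 2 µM, OSKM received doxycycline at 1 µg/ml as the labels give it, and OSKM B12 received both. The culture methods of the study write the doxycycline concentration in mg/ml instead. There was 1 H3K36me3 library per condition with its own input. The immunoprecipitation tag names H3K36m3, while the extraction text of the labels and the antibody entry in the study's methods both write H3K3me3. The target is taken from the tag.

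H3K36me3 is laid down by SETD2 as RNA polymerase II elongates, and it therefore lies over the bodies of transcribed genes, rising towards their 3′ ends. The mark is also a repair platform: the MutSα mismatch recognition complex binds it, and LEDGF, the product of Psip1, reads it and recruits CtIP, the product of Rbbp8, to broken DNA so that resection and homologous recombination can start. The values below are the mark over the repair genes themselves, not repair activity.

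For every gene 2 quantities were computed from the deposited broad peaks. The covered share is the percentage of the gene body inside peaks. The density is the pileup in peaks per 1000000 tags, averaged over all bases of the gene body with bases outside peaks counted as 0, so that it does not depend on gene length. A gene was called marked when its covered share averaged at least 10% over the 4 libraries. With 1 library per condition no test between conditions could be made, and the intervals given are exact 95% binomial intervals on estimated fragments that cover counting error only. Fewer cells carrying the mark and less mark per cell cannot be told apart in these bulk cultures. With 1 immunoprecipitation per condition, a difference in its yield cannot be told apart from either.

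The H3K36me3 libraries held 29046913 to 33399267 tags and 65473 to 69420 peaks, which covered 92.8 Mb in OSKM and 154 to 166 Mb in the other libraries. All 9 fibroblast marker genes were marked, with a summed density of 6.29 in MEF and 6.96 in MEF B12, and 3.76 in OSKM against 7.08 in OSKM B12. None of the 5 epithelial and 5 pluripotency markers was marked. Krt19 was covered over 5.5% in OSKM B12 alone and Zfp42 over 2.42% in OSKM alone. The rest, with Epcam, Cdh1, Nanog and Esrrb among them, were listed at 0 in every library. Of 4 endothelial markers, Tek alone was marked, with covered shares of 2.84%, 3.63%, 7.85% and 26.6% in MEF, MEF B12, OSKM and OSKM B12. Of 4 immune markers, Cd68 alone was marked, with a summed density of the list of 0.782, 0.92, 0.413 and 0.931 in the same order, while Ptprc and Cd3e were at 0. Adgre1 was covered over 3.69% in MEF B12 and 1.32% in OSKM B12, and the endothelial Kdr over 0.903% in OSKM B12. The part of other cells in the results below was not tested.

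The mark over the repair genes was lowest in OSKM and higher whenever vitamin B12 was present. The mean covered share of the 34 genes was 26.5% in MEF and 30.4% in MEF B12, and 15.5% in OSKM against 30.3% in OSKM B12, beside 21.6%, 22.9%, 14.6% and 23.2% over all protein-coding genes. This order against all genes turned with only peaks whose −log10 q reached 5, where the repair genes had 8.48%, 13.2%, 1.16% and 14.9% and all genes 13.3%, 15.5%, 2.84% and 16.2%. In OSKM it also turned among genes with at least 4 exons (16.3% against 18%). A peak was found in 31, 33, 28 and 31 of the 34 genes in the same order, and in 51.4%, 52.2%, 48.2% and 52.6% of all genes. Of the 34 genes 20 were marked, or 58.8%, against 9199 of all genes, or 42.1%. Fanci stood just inside this limit with a mean of 11% and Wrn just outside with 8.73%. The plot of covered share by gene shows that the red OSKM point lies furthest left in each of the 20 marked genes.

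**Figure D1:**
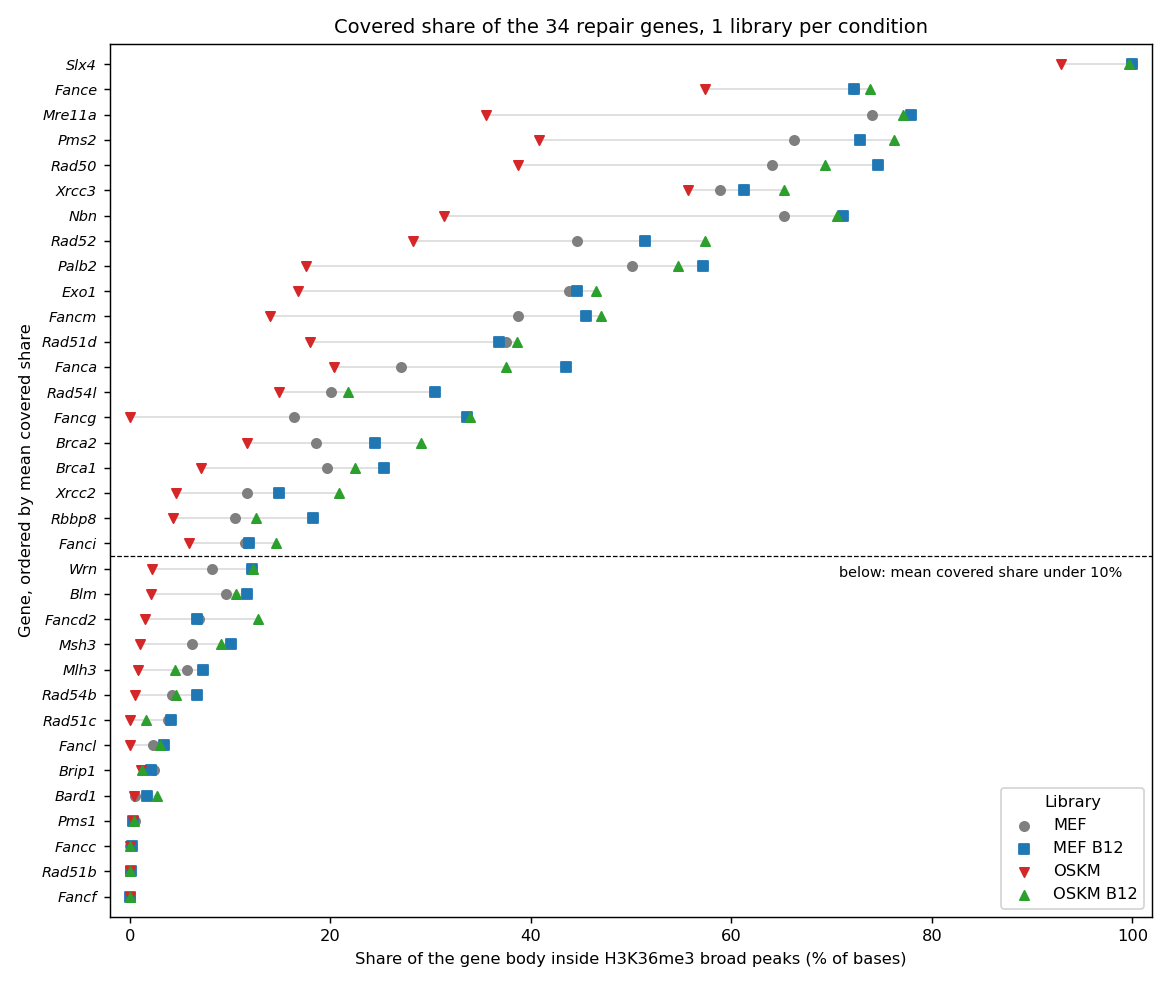
Share of each gene body inside H3K36me3 broad peaks (x axis, % of bases) for the 34 repair genes (y axis, ordered by the mean of the 4 libraries), with 1 point per library and no error bars because each condition has 1 library. Slx4 is covered over at least 92.9% in every library, Mre11a falls to 35.5% in OSKM against 74% in MEF, and 14 genes lie under the dashed line.

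The study induced OSKM to follow the mark during reprogramming, and added vitamin B12 because it feeds the supply of the methyl donor SAM. In OSKM against MEF the density was lower in 31 of the 34 genes, beside 50.4% of all genes, and equal in the 3 genes without a peak in either library, Fancf, Rad51b and Fancc. Among the 20 marked genes, 12 were at least 1.5-fold lower (log2 of density plus 0.05), beside a background of 69.9% of all marked genes past the same limit. Their median log2 difference was -0.78, close to the -0.72 of all marked genes. The range ran from -0.34 in Fanca to -1.21 in Fancg, and 7 of the 20 lay between the quartiles of all marked genes (-0.94 and -0.55). For all 19 marked genes with a peak in both libraries the interval of the OSKM to MEF ratio lay under 1. Ratios printed with an interval leave out the added 0.05 and are called plain ratios below. Every 1.5-fold count of the main analysis includes it. Over only those bases in a peak in all 4 libraries, 0 of 19 genes passed the fold (2.91% of marked genes) and the median was -0.24, beside -0.32 for all marked genes. That setting keeps only bases still called in OSKM, so a smaller difference is built into it. With each difference centred on the median of marked genes, 0 of 20 passed (6.76% of marked genes). With 0.01 added in place of 0.05, 17 of 20 passed (81.2% of marked genes).

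With vitamin B12 added to the reprogramming cells the density was higher in 31 of 34 genes, beside 52.3% of all genes, and equal in the other 3. All 20 marked genes were at least 1.5-fold higher in OSKM B12 than in OSKM, where 95.8% of all marked genes were. The median log2 difference was 1.10 in the repair genes and 0.99 in all marked genes, with a range from 0.70 in Rbbp8 to 1.99 in Fancg. Over the bases called in all 4 libraries, again only those still called in OSKM, 5 of 19 passed the fold (39.7% of marked genes). After centring 1 of 20 did (5.39% of marked genes). OSKM is the lower library in both of these comparisons, so they share its values.

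Vitamin B12 alone gave smaller differences. In MEF B12 against MEF the density was higher in 32 of 34 genes (46.7% of all genes), lower in Pms1 and equal in Fancf. With 0.05 added to each density, 2 of 20 marked genes, Fanca and Fancg, were at least 1.5-fold higher (3.74% of all marked genes). By plain ratio Rbbp8 (1.88) and Rad54l (1.65) passed this limit too. No share of all marked genes by plain ratio is given here. The median log2 difference was 0.31 in the repair genes and 0.21 in all marked genes, and 15 of the 20 were above the latter value. The counting interval of the ratio lay over 1 in 19 of the 20. In OSKM B12 against MEF, again with 0.05 added, 2 of 20, Fancg and Xrcc2, were at least 1.5-fold higher (7.53% of all marked genes). The median was 0.33 against 0.26, and the density was higher in 27 of 34 genes (47.1% of all genes). By plain ratio Brca2 (1.75), Fanca (1.57), Fanci (1.56) and Rad52 (1.54) also passed the limit. The ranking OSKM below MEF below MEF B12 was found in all 20 marked genes, while the highest of the 4 values was that of OSKM B12 in 13 and of MEF B12 in 7. These rankings were not counted over all marked genes. Of all genes, 50.4% were lower and 2.5% higher in OSKM than in MEF, and 46.7% were higher and 6.74% lower in MEF B12. For MEF B12 vs MEF and OSKM B12 vs MEF, the medians lay 0.10 and 0.07 from those of all marked genes. There was no replicate to set these differences against.

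**Figure D2:**
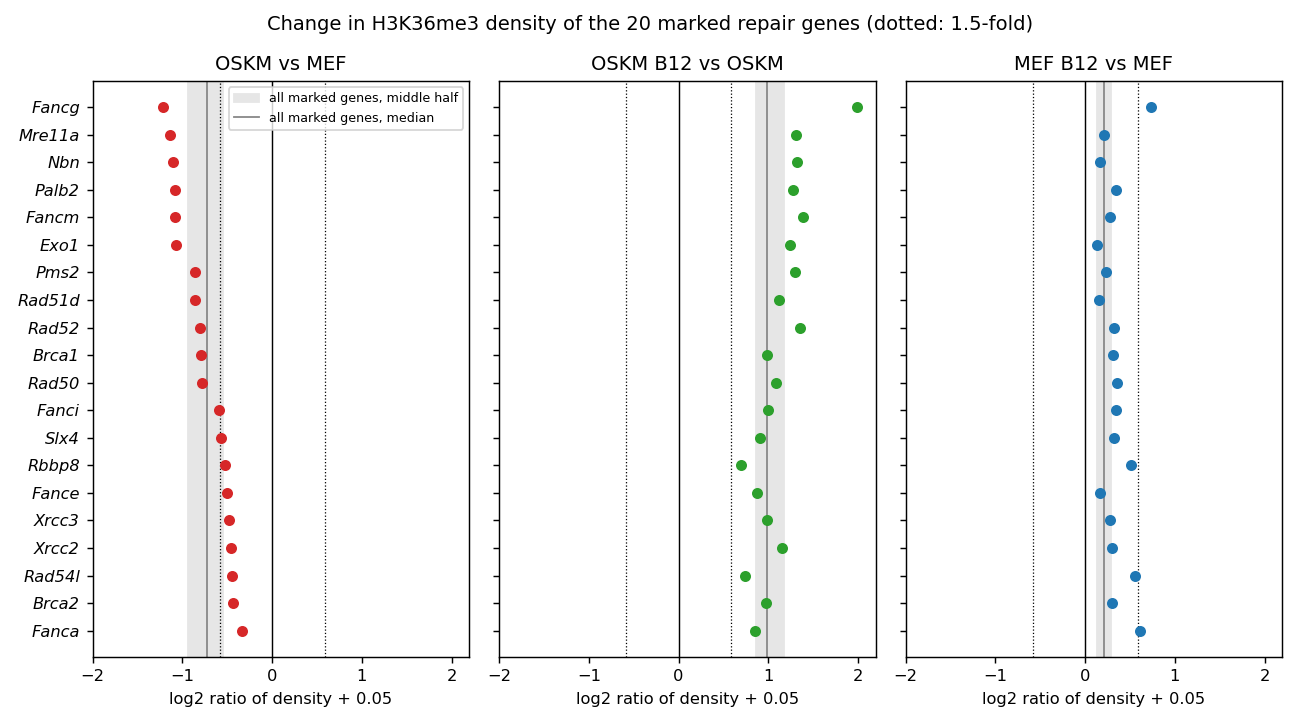
Log2 ratio of H3K36me3 density plus 0.05 (x axis) in 3 comparisons for the 20 marked repair genes (y axis, ordered by OSKM vs MEF), 1 point per gene. The grey band spans the quartiles of all 9199 marked genes and the grey line is their median; repair genes scatter around it, from -1.21 to -0.34 for OSKM vs MEF and from 0.70 to 1.99 for OSKM B12 vs OSKM.

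Subunits of the complex that opens resection were among the most widely covered repair genes. MRE11, RAD50 and NBS1, the products of Mre11a, Rad50 and Nbn, form the complex that senses and trims broken DNA ends. Rad50 (chr11:53649519-53707319, minus strand) was covered over 64% of its body in MEF and 74.6% in MEF B12, and 38.7% in OSKM against 69.3% in OSKM B12. Mre11a (chr9:14784676-14837123, plus strand) was covered over 74%, 77.9%, 35.5% and 77.1% in that order. Nbn (chr4:15957925-15992589, plus strand) was covered over 65.2%, 71.1%, 31.3% and 70.5%. All 3 subunits thus had their lowest cover in OSKM and lay above MEF with vitamin B12 in either state.

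By density, too, OSKM was lowest in all 3 genes. Rad50 had 0.342 in MEF and 0.454 in MEF B12, and 0.179 in OSKM against 0.438 in OSKM B12, and its OSKM to MEF ratio was 0.523 (0.487 to 0.562). The ratio was 0.383 (0.354 to 0.415) for Mre11a, from 0.381 in MEF and 0.146 in OSKM. It was 0.393 (0.356 to 0.434) for Nbn, from 0.357 and 0.141. The intervals of Mre11a and Nbn overlapped, and both lay below that of Rad50, but intervals of counting error alone cannot rank the genes. OSKM B12 was 2.45-fold (2.28 to 2.62), 2.98-fold (2.76 to 3.22) and 3.04-fold (2.76 to 3.36) above OSKM in Rad50, Mre11a and Nbn.

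The bases lost in OSKM were largely called again with vitamin B12. Of the 38.8 kb of Mre11a called in MEF, 43% were called in OSKM, and 91.3% of the lost bases were called in OSKM B12. In Nbn 42.5% of 22.6 kb were kept and 85.3% of the lost bases were called in OSKM B12, and in Rad50 58.5% of 37 kb and 83.9%. Exons followed: 12 of the 16 exons of Nbn touched a peak in MEF and 12 in MEF B12, and 5 in OSKM against 13 in OSKM B12. Mre11a had 16, 16, 10 and 16 of 19, and Rad50 had 19, 22, 12 and 22 of 25. Ankrd49 overlaps 0.345% of Mre11a, and no other protein-coding gene body overlaps these 3 genes.

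To show what such a lost stretch is, 1 coding exon of each subunit is printed with 40 bases of intron on both sides, from the GRCm38 (mm10) genome, 5′ to 3′ on the coding strand, with exon bases in capitals and intron bases in lower case. These genes had the most internal coding exons of at most 200 bases whose window was wholly inside a peak in MEF, MEF B12 and OSKM B12 and wholly outside in OSKM, counted after the values were known: 5 in Mre11a, 4 in Rad50 and 3 in Nbn, of which the longest is given.
Mre11a exon 10: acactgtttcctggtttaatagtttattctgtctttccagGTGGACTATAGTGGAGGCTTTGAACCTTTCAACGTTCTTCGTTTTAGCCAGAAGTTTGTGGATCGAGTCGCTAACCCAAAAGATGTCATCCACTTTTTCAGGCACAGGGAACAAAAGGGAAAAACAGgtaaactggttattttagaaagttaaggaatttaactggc
Rad50 exon 8: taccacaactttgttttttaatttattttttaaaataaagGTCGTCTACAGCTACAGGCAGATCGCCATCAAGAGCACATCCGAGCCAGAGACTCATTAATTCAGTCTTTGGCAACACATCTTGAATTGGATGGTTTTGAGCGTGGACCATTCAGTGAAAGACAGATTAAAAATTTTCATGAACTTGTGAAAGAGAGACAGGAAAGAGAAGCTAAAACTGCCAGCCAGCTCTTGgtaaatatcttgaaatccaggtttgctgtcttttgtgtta
Nbn exon 7: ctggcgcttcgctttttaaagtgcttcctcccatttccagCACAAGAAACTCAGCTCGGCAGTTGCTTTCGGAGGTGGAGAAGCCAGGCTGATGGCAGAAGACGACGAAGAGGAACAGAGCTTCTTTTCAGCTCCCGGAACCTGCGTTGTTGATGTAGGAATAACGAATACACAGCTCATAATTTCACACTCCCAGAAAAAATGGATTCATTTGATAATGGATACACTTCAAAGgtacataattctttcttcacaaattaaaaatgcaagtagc
The Mre11a window lies at chr9:14811790-14811996 on the plus strand, and its peaks had a mean scaled pileup of 0.587 in MEF, 0.562 in MEF B12 and 0.539 in OSKM B12. The Rad50 window, chr11:53692668-53692941 on the minus strand, lay in peaks of 0.537, 0.643 and 0.645. The Nbn window, chr4:15970681-15970954 on the plus strand, lay in peaks of 0.542, 0.534 and 0.57. Each pileup is the mean of the whole peak around the window. The exons hold 44.1%, 43.8% and 45.4% G and C.

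**Figure D3:**
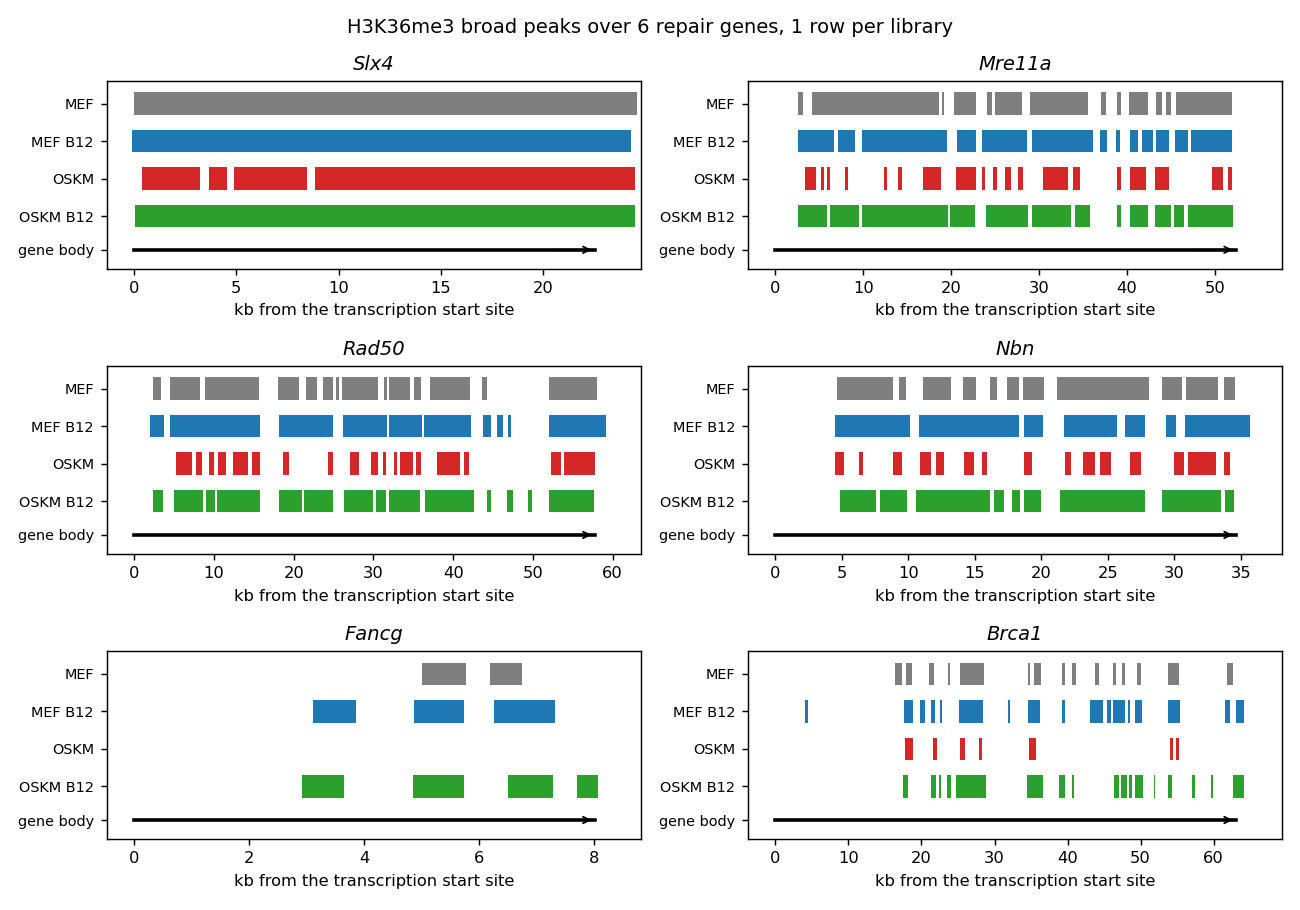
Broad peaks (coloured bars, 1 row per library) over 6 repair genes, with distance from the transcription start site in kb on the x axis and the gene body as a black arrow. The long blocks of Mre11a, Rad50 and Nbn break into short pieces in OSKM and are long again in OSKM B12, Slx4 stays covered throughout, and Fancg has no peak in OSKM.

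CtIP, encoded by Rbbp8 on chromosome 18, starts resection together with this complex. Its covered share was low in every library, with 10.5% in MEF and 18.3% in MEF B12, and 4.25% in OSKM against 12.6% in OSKM B12. Its density of 0.0472, 0.0886, 0.0171 and 0.0589 gave an OSKM to MEF ratio of 0.362 (0.308 to 0.423), and a MEF B12 to MEF ratio of 1.88 (1.69 to 2.08). Its mean density stood at percentile 2.63 of marked genes, the lowest of the 20. Blm and Wrn, RecQ helicases that unwind recombination intermediates, were not marked: Blm was covered over 9.61%, 11.7%, 2.14% and 10.6%, and Wrn over 8.21%, 12.2%, 2.19% and 12.3%. Both had their lowest value in OSKM.

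Among the recombination mediators 8 of 12 were marked, beside 42.1% of all genes. With 0.05 added to each density, Palb2, Rad51d, Rad52 and Brca1 were at least 1.5-fold lower in OSKM, 4 of 8 beside 69.9% of all marked genes. By plain ratio Xrcc2 (0.427), Brca2 (0.569) and Rad54l (0.634) passed this limit too, and Xrcc3 (0.689) did not. The share of all marked genes by plain ratio is not given here. Xrcc3, Rad51d and Xrcc2 are paralogues of the strand exchange recombinase. Xrcc3 (chr12:111803193-111813841, minus strand) had the highest density of the group, 0.469 in MEF and 0.58 in MEF B12, and 0.323 in OSKM against 0.691 in OSKM B12. Its cover moved little, at 58.9%, 61.3%, 55.7% and 65.2%, and 94.5% of its MEF bases were called in OSKM. Klc1, a kinesin light chain gene, overlaps 33.6% of the body and holds 57.1% of the bases covered in MEF, so the signal of the 2 genes cannot be told apart there.

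Rad52, which anneals single strands, had densities of 0.262, 0.339, 0.129 and 0.404 in MEF, MEF B12, OSKM and OSKM B12, and an OSKM to MEF ratio of 0.492 (0.426 to 0.565). Palb2, which bridges BRCA1 and BRCA2, had 0.214, 0.284, 0.0747 and 0.253. Only 24.6% of its 12.9 kb called in MEF were called in OSKM, and the ratio was 0.348 (0.297 to 0.406). Rad51d had 0.192, 0.219, 0.083 and 0.239, with a ratio of 0.433 (0.35 to 0.532), and its MEF B12 to MEF ratio of 1.14 (0.969 to 1.34) was the only one of the 20 whose interval held 1. All 3 genes were lowest in OSKM.

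Rad54l, a translocase that remodels strand exchange products, had a density of 0.134 in MEF and 0.22 in MEF B12, and 0.0847 in OSKM against 0.174 in OSKM B12. Here MEF B12 was the highest library, and the MEF B12 to MEF ratio was 1.65 (1.45 to 1.88). Xrcc2 rested on few fragments, 81 in MEF and 36 in OSKM, with densities of 0.0454, 0.0672, 0.0194 and 0.104. Its OSKM B12 to MEF ratio was 2.29 (1.75 to 3.03).

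Brca1 and Brca2, which direct resection and load the recombinase, were marked but thinly, with mean densities at percentiles 8.89 and 11.5 of marked genes. Brca1 (chr11:101488764-101551879, minus strand) had a density of 0.0803 in MEF and 0.112 in MEF B12, and 0.0256 in OSKM against 0.1 in OSKM B12. Peaks touched 9, 10, 3 and 11 of its 23 exons. The OSKM to MEF ratio was 0.319 (0.268 to 0.376), and the OSKM B12 to OSKM ratio was 3.91 (3.32 to 4.64).

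Brca2 (chr5:150522630-150569746, plus strand) had 0.0763, 0.106, 0.0434 and 0.133 in the same order, with an OSKM to MEF ratio of 0.569 (0.482 to 0.669). The intervals of the 2 genes did not overlap, but they leave out variation between libraries and in peak calls, so they cannot rank the genes. Only 19.5% of the 8.76 kb of Brca2 called in MEF were called in OSKM, yet 3.8 kb were called in OSKM and not in MEF. In Brca1 26.3% of 12.4 kb were kept and 1.22 kb were added.

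The other 4 mediators were not marked. Rad54b, a relative of Rad54l, was covered over 4.17%, 6.7%, 0.507% and 4.57% in MEF, MEF B12, OSKM and OSKM B12. Rad51c was covered over 3.77% and 4.14% without doxycycline, had no peak in OSKM and was covered over 1.61% in OSKM B12. Bard1, the partner of BRCA1, was covered over 0.533%, 1.7%, 0.381% and 2.68%. The very long Rad51b, of 517409 bases, had a single peak of 371 bases in MEF B12 and none elsewhere. No enrichment was detectable at this depth in the libraries without a peak.

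The Fanconi anaemia genes, which repair crosslinks between DNA strands, held both extremes. Slx4, the scaffold of structure-specific nucleases, had the highest density of the 34 genes, at percentile 98.9 of marked genes. Its body (chr16:3979123-4001680, minus strand) was covered over 100% in MEF and MEF B12, while OSKM had 92.9% and OSKM B12 99.7%, and no other protein-coding gene overlaps it. In MEF a single peak of 24.6 kb ran from exon 1 past the end of the gene, and in OSKM this was 4 peaks, the first starting 0.392 kb into the gene. The density was 0.794, 1.01, 0.519 and 1.02, with an OSKM to MEF ratio of 0.654 (0.61 to 0.701). Slx4 thus passed the 1.5-fold limit by plain ratio. Its log2 difference of -0.57, taken after the pseudocount was added to each density, stayed short of this limit.

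Fance, a bridging subunit of the core complex, was the third highest member, with densities of 0.406 in MEF and 0.463 in MEF B12, and 0.272 in OSKM against 0.537 in OSKM B12. Of its 9.42 kb called in MEF, 73.9% were called in OSKM, and the ratio was 0.67 (0.589 to 0.761). Slx4, Xrcc3 and Fance, which had the highest mean densities of the 34, are shown by 1 exon each that lay wholly in peaks in all 4 libraries and outside other protein-coding genes, printed as above with the exon in capitals.
Slx4 exon 3: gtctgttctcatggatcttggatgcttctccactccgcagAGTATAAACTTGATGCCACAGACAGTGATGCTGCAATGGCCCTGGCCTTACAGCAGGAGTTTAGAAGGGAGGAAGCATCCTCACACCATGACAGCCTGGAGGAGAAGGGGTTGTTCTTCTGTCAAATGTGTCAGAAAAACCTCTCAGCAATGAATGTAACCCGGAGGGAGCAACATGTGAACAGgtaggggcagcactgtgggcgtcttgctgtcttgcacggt
Xrcc3 exon 5: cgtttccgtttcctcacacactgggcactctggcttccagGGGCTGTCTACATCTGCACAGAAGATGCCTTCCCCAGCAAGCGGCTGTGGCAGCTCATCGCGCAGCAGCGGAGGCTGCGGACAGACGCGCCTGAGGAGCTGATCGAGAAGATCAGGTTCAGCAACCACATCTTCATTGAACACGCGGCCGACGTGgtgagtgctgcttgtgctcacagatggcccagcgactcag
Fance exon 5: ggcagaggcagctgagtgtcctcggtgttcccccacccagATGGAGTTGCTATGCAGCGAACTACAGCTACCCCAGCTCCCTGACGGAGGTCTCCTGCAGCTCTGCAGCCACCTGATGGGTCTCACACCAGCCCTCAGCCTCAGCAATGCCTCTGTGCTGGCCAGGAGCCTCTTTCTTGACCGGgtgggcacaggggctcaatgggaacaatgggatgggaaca
The Slx4 window, chr16:3995654-3995917 on the minus strand, lay in peaks with a mean scaled pileup of 0.794 in MEF and 1.01 in MEF B12, and 0.599 in OSKM against 1.03 in OSKM B12. The Xrcc3 window, chr12:111807793-111808027 on the minus strand, lay in peaks of 0.796, 0.946, 0.598 and 1.09. The Fance window, chr17:28317428-28317651 on the plus strand, lay in peaks of 0.611, 0.668, 0.494 and 0.833. The peak around each of the 3 windows thus had its lowest mean pileup in OSKM. Each mean is over the whole peak, not the window, and the peaks differed in length. The peak at the Xrcc3 window was 37.9 kb long in MEF and 7.81 kb in OSKM, so the pileup within the windows was not compared. The exons hold 48.9%, 60.6% and 60.4% G and C.

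Fancm, a translocase that brings the core complex to stalled forks, had a density of 0.175, 0.223, 0.0563 and 0.228 in MEF, MEF B12, OSKM and OSKM B12, and peaks touched 13, 16, 5 and 15 of its 23 exons. Its OSKM to MEF ratio of 0.322 (0.285 to 0.362) lay below those of Slx4 and Fance. The intervals did not overlap, but they cover counting error only and cannot rank the genes. Fanci, a subunit of the clamp that the pathway ubiquitinates, had 0.0717, 0.105, 0.0308 and 0.112, but 54.7% of its bases covered in MEF lay in the 6.96% of its body shared with Polg, the mitochondrial DNA polymerase gene.

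Fancg, a core complex subunit on chr4:43002343-43010355, minus strand, had the largest log2 difference of the 20 marked genes in each comparison. It was covered over 16.4% in MEF and 33.6% in MEF B12, and 0% in OSKM against 33.9% in OSKM B12. The peaks were short: 2 in MEF, of 564 and 754 bases, 3 in MEF B12 and 4 in OSKM B12, all weak, with fold enrichments of 2.31 to 3.25 over input. No fold against OSKM is given because no peak is listed there, and its log2 values of -1.21 and 1.99 rest on the pseudocount. The MEF B12 to MEF ratio was 2.16 (1.55 to 2.99), on 59 fragments in MEF.

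Fanca, another core subunit, had a density of 0.135, 0.233, 0.096 and 0.212, and the smallest OSKM to MEF difference of the 20, with a ratio of 0.709 (0.635 to 0.792). MEF B12 exceeded MEF by a ratio of 1.72 (1.57 to 1.88). A long readthrough gene model, Gm20388, spans the whole body of Fanca, so its value falls away when overlapping bases are left out. The remaining 5 Fanconi genes were not marked: Fancd2, the other clamp subunit, was covered over 6.91%, 6.69%, 1.48% and 12.8%, Fancl, the ubiquitin ligase, over 2.28%, 3.37%, 0% and 3.03%, and the helicase gene Brip1 over 2.37%, 2.09%, 1.12% and 1.22%. Fancc had 1 peak of 296 bases, in MEF B12, and the single-exon Fancf, of 1691 bases, had none in any library.

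In mismatch repair, which removes replication errors, 2 of 5 genes were marked (42.1% of all genes) and both were at least 1.5-fold lower in OSKM (69.9% of all marked genes). Pms2 (chr5:143909964-143933968, plus strand), a MutL endonuclease subunit, was covered over 66.2% in MEF and 72.8% in MEF B12, and 40.8% in OSKM against 76.2% in OSKM B12. Its densities were 0.384, 0.459, 0.189 and 0.538, with an OSKM to MEF ratio of 0.491 (0.442 to 0.547) and an OSKM B12 to OSKM ratio of 2.85 (2.57 to 3.16). Rsph10b and a gene model, Gm42421, overlap 24.1% of the body and hold 28.2% of the bases covered in MEF.

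Exo1 (chr1:175880581-175913489, plus strand), the exonuclease shared by mismatch repair and end resection, had densities of 0.181, 0.203, 0.0597 and 0.209. It kept 23.7% of its 14.4 kb in OSKM and its ratio of 0.33 (0.283 to 0.385) was under that of Pms2. The intervals did not overlap, but they cover counting error only. MEF B12 and OSKM B12 differed little from MEF, by ratios of 1.12 (1.01 to 1.25) and 1.16 (1.04 to 1.29).

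Msh3, which recognises loops, was not marked, with 6.16%, 10.1%, 0.993% and 9.1% in MEF, MEF B12, OSKM and OSKM B12, and neither was Mlh3, a MutL subunit, with 5.68%, 7.25%, 0.798% and 4.45%. Pms1, another MutL subunit, had 1 peak of 291 to 510 bases in each library and a cover under 0.5% throughout. Its MEF and MEF B12 peaks overlapped in intron 2, the OSKM peak lay elsewhere in intron 2 and the OSKM B12 peak in intron 5. None of these 3 genes had more than 10.1% of its body covered in any library.

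Over all 34 genes 323 kb were called in MEF. Of these, 82.3% were called in MEF B12 and 42% in OSKM, and 69.3% of the bases lost in OSKM were called in OSKM B12. All protein-coding gene bodies together gave 87.8%, 56.2% and 74.2%, so each share was lower in the repair genes, without a replicate to set this against. Across the 31 genes with a peak in MEF, the share kept in OSKM rose with the MEF density (Spearman rho 0.877 across genes, which are not replicates). This was not computed over all genes or for the share called in MEF B12. Whether the trend is particular to OSKM or to these genes was therefore not tested. The 604 exons of the 34 genes touched a peak in 237 cases in MEF and 279 in MEF B12, and 141 in OSKM against 276 in OSKM B12. Exons of all genes were not counted. The whole peak lists covered 154, 166, 92.8 and 166 Mb in the same order, so the exon counts moved with the bases called. Of the 20 marked genes 13 lay under percentile 50 of mean density, and the median was percentile 30.4.

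Along the gene body the covered share was higher towards the end, in the repair genes as over all marked genes. In the 20 marked repair genes the first 20% of the body was covered over 18% in MEF and the last 20% over 56.5%, a ratio of 3.13, and in OSKM over 10.8% and 39.3%, a ratio of 3.65. For all marked genes the ratios were 5.47 and 7.12. Slx4, covered from its first exon, raised the beginning: without it the ratios were 3.95 and 5.15 over 19 genes. The last 20% was covered over 63.3% in MEF B12 and 65.7% in OSKM B12.

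**Figure D4:**
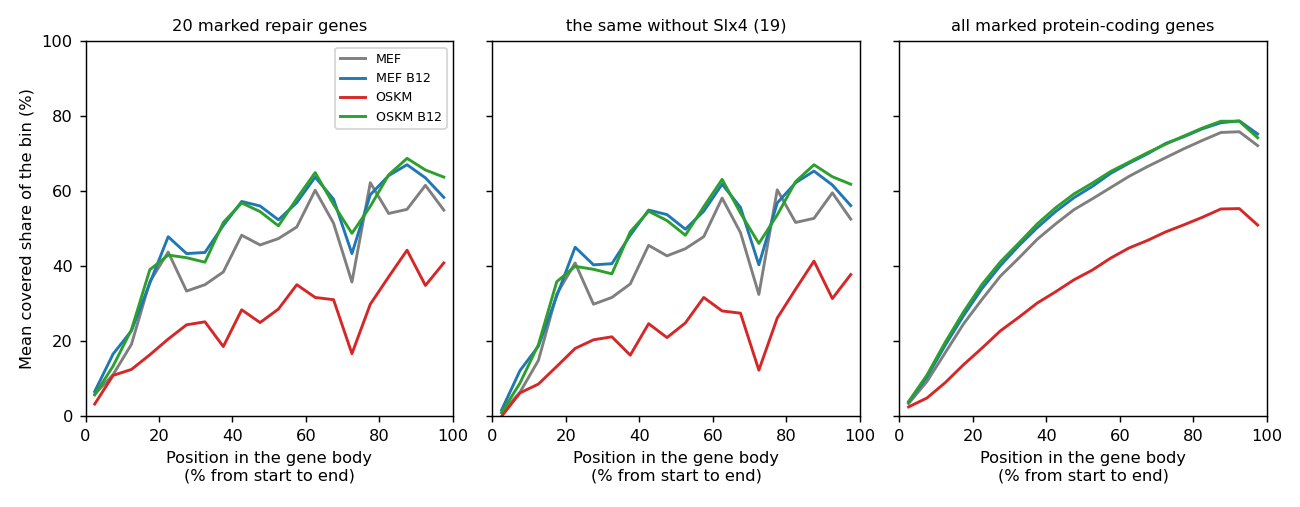
Mean covered share (y axis, %) in 20 equal bins from the start to the end of the gene body (x axis, %) for the 20 marked repair genes, the 19 without Slx4 and all marked protein-coding genes, 1 line per library. OSKM lies lowest along the body in each panel, and the last 20% of the repair genes reaches 39.3% in OSKM against 56.5% in MEF.

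Cover and gene length ran in opposite directions in the repair genes. The median length was 29.8 kb for the marked and 82.9 kb for the unmarked repair genes, whereas marked genes in general were the longer ones (20.8 kb against 12.7 kb). Spearman's rho between length and mean covered share was -0.554 across the 34 genes and 0.206 across all 21853, a description across genes that share libraries. A divergent neighbour was common: 9 of the 34 repair genes (26.5%) had another protein-coding gene starting within 1 kb upstream on the other strand, against 7.34% of all genes, a feature looked at after the values were known. These pairs were Brca1 with Nbr1, Palb2 with Dctn5, Rad51b with Zfyve26, Rad51c with Tex14, Xrcc3 with Zfyve21, Wrn with Purg, Fancd2 with Emc3, Pms1 with Ormdl1 and Pms2 with Aimp2.

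The remaining genes of the same routes carried more of the mark. Of 31 other homologous recombination genes 25 were marked and 20 were at least 1.5-fold lower in OSKM, and their mean covered share was 44.4% in MEF and 47.6% in MEF B12, and 29.1% in OSKM against 46.7% in OSKM B12. Eme2, a nuclease subunit, had the highest density, 0.626 in MEF and 0.391 in OSKM. All 11 other Fanconi genes were marked and 7 were at least 1.5-fold lower in OSKM. Their highest density was that of Wdr48, a deubiquitinase cofactor, with 0.609 and 0.331. Of 13 other mismatch repair and resynthesis genes 10 were marked and 8 were at least 1.5-fold lower. The highest density was that of Pold2, a DNA polymerase delta subunit, with 0.592 and 0.225. In OSKM B12 against OSKM, 24, 11 and 10 genes of these lists were at least 1.5-fold higher, and in MEF B12 against MEF none was. Over all genes 42.1% were marked, and of the marked 69.9% were at least 1.5-fold lower in OSKM. Past the same fold, 95.8% were higher in OSKM B12 than in OSKM and 3.74% higher in MEF B12 than in MEF.

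In end joining, the competing route for broken ends, 9 of 12 genes were marked, 7 were at least 1.5-fold lower in OSKM and 8 higher in OSKM B12 than in OSKM, against the shares over all genes just given. The median log2 differences of its marked genes were -0.75 and 1.07, beside -0.78 and 1.10 for the 20 marked repair genes. In MEF B12 against MEF its median was 0.19 with 0 genes past the fold, beside 0.31 with 2 for the repair genes and 0.21 for all marked genes. Both genes that write and read the mark in repair had their lowest density in OSKM. Setd2 had a density of 0.417 in MEF and 0.481 in MEF B12, and 0.184 in OSKM against 0.473 in OSKM B12, and Psip1 had 0.52, 0.584, 0.252 and 0.62.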

How the data were processed

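H3K36me3 ChIP–seq was analysed in 4 conditions, each with 1 library and its input; labels gave the groups. Per the submitters' notes and the study's methods, the authors used Bowtie 0.12.9 with mm10 for alignment and called broad peaks with MACS2 2.2.6 on each library separately. The deposited signal is the pileup, averaged over each peak, of fragments extended to their estimated length. The authors' fold enrichment (a ratio over local input) and their −log10 p-values and q-values served only in alternatives. Here the pileup was divided by the tags in the file headers. Peaks on unplaced scaffolds (1 to 16 per list) were left out. Estimated fragments are pileup times bases divided by the fragment length of 288 to 292 bases in the headers.

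The 34 genes and all other lists were chosen with earlier results of these data known, and none was picked for how its genes moved. All 34 are named, marked ones in full and the others by cover, and of other lists the gene of highest density. No sequence of chromosome 18 is printed. Python 3.11, numpy 2.4.6 and scipy 1.17.1 were used, and the interval arithmetic was tested on simulated data. The pseudocount was 0.05 scaled pileup, which makes differences of low genes smaller. No p-value was computed. Alternatives are given with the closing observations.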

Additional observations from a re-analysis of the deposited data

Results flagged for a closer look

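Pms1, a MutL subunit gene, was the only 1 of the 34 whose difference with vitamin B12 ran in opposite directions in the 2 cell states. The MEF B12 to MEF density ratio was 0.538 (0.211 to 1.23) and the OSKM B12 to OSKM ratio 1.26 (0.551 to 2.74), and the log2 differences, with the pseudocount, were 0.03 apart. The difference was not tested. Both intervals held 1, with 19 estimated fragments in MEF and 14 in OSKM.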

How the results depend on the processing

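No paired analysis was possible because there was 1 library for every condition. Under the 14 alternatives the median log2 difference of the marked repair genes kept its sign in all 4 comparisons. It ran from -1.70 to -0.06 for OSKM vs MEF, from 0.11 to 2.90 for OSKM B12 vs OSKM, from 0.10 to 0.66 for MEF B12 vs MEF and from 0.07 to 0.98 for OSKM B12 vs MEF.

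Counts past 1.5-fold moved more, given here in that order of comparisons, each with the share of all marked genes past the fold. With only peaks whose −log10 q reached 5, 9 repair genes were marked, and 6, 9, 5 and 5 of them passed (83.8%, 98%, 19.4% and 25.2%). The mean covered share of the 34 genes was then 8.48% in MEF and 13.2% in MEF B12, and 1.16% in OSKM against 14.9% in OSKM B12, each below the 13.3%, 15.5%, 2.84% and 16.2% of all genes, where all peaks put the repair genes above. With genes of at least 4 exons only, the repair genes were below all genes in OSKM alone (16.3% against 18%), as with bases shared with another gene left out (14.4% against 14.5%). With a pseudocount of 0.2, which shrinks all differences, 4, 13, 0 and 0 of 20 passed (23%, 66%, 0.772% and 1.46%). Over bases called in all 4 libraries, 0, 5, 0 and 0 of 19 passed (2.91%, 39.7%, 0.25% and 0.762%), a setting that keeps only bases still called in OSKM. Centring on the median of marked genes left 0, 1, 0 and 0 (6.76%, 5.39%, 1.61% and 2.32%), since it takes out the shift shared by marked genes. For MEF B12 vs MEF and OSKM B12 vs MEF, the authors' fold enrichment gave 5 and 4 (7.49% and 10.3%), and a pseudocount of 0.01 gave 4 and 5 (6.64% and 12.3%). For OSKM vs MEF, where the main count was 12 of 20 (69.9%), a pseudocount of 0.01 gave 17 (81.2%). The fold enrichment gave 16 (77.3%) there, and pileup not divided by tags also 16 (79.8%). Merging peaks at most 1 kb apart gave 14 (58.7%), and the same number of peaks from each list 11 (69.6%). Leaving out bases shared with another gene gave 1 for MEF B12 vs MEF (3.71%), since Fanca has no base of its own, and genes with at least 4 exons gave 1 for OSKM B12 vs MEF (6.02%), since Xrcc2 has 3. The cause of the other shifts was not tested.

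Of 1060 values of single genes, 924 were labelled the same as in the main analysis, a label that did not require the same sign. Only genes past the fold limit in the main analysis could be labelled reversed, and 9 were, all by centring. Fanci went to 0.13 in OSKM vs MEF. In OSKM B12 vs OSKM, Brca1 and Xrcc3 went to 0.00, Brca2 to -0.02, Slx4 to -0.08 and Fance to -0.13. Fanca went to -0.15, Rad54l to -0.26 and Rbbp8 to -0.30 there. Centring also turned the sign of genes short of the limit. In OSKM vs MEF, 9 of 20 marked genes, Fanci among them, lay above the median of all marked genes. In MEF B12 vs MEF and OSKM B12 vs MEF, 5 and 7 of 20 lay below that median.

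Depth limits the unmarked genes most: a gene without a peak is one without enrichment detectable at 29046913 to 33399267 tags. Peaks were called in each library separately, so cover and density also move with what was called. Culture and immunoprecipitation were not replicated, and no interval given here covers them.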
